A study of Mus musculus with 6 samples.

Results

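Plasma carriers are proteins that the liver secretes into blood to hold hormones, vitamins, metals and heme. The 10 genes described here are Alb (serum albumin), Trf (transferrin, the iron carrier), Ttr (transthyretin, a carrier of thyroid hormone that also binds the retinol carrier), Rbp4 (retinol binding protein), Gc (vitamin D binding protein), Ahsg (fetuin-A), Hp (haptoglobin), Hpx (hemopexin), and Fga and Fgb (chains of fibrinogen). Haptoglobin and hemopexin are scavengers, and fibrinogen is a secreted liver protein but no carrier. All 10 are called plasma carriers below for short. They are 10 of the 27179 genes counted, taken by symbol. They were chosen by their role as secreted liver proteins and by their counts in mutant and wild-type libraries, which earlier results of the same comparison had shown, so the difference between genotypes in these 10 genes is a description with no test. All 10 passed the filter on low counts of the comparison over all genes, but 9 of them, all but Hp, passed through the mutant libraries only.

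Haptoglobin captures hemoglobin that leaks from broken red cells, and hemopexin captures free heme, so that the iron is not lost and the heme does no damage. Mature red cells have no nucleus and keep only RNA made earlier in their life. Transcripts of secreted plasma proteins are not among those for which red cells are known.

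The libraries came from purified erythrocytes of BalB/c male mice. There were 3 libraries of genotype Nxf1+/C587R, which carry 1 copy of the C587R allele of the mRNA export receptor gene, and 3 of Nxf1+/+ littermates. Each library was 1 animal, and each of 3 numbered batches held 1 mutant and 1 wild-type library. Library numbers below are these batch numbers. The labels state no age, and the genotype is that of the whole animal, not of red cells alone.

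Total counts were 15172184, 15246552 and 14636739 in the mutants, against 15494862, 14711457 and 15790336 in wild type. The 12 erythrocyte markers matched were all seen in every library and took 91.9% to 92.0% of the mutant counts, against 91.4% to 92.0% of those of wild type. Nxf1 itself had 9, 7 and 11 counts in the mutants, against 15, 10 and 20 in wild type, too few to check the genotype. Wild-type library 1 stood apart. It held 17943 counts of 10 endocrine pancreas markers, all 10 of them seen, with 9073 for Ins2 and 5009 for Ins1 (the insulin genes), and 430 counts of 17 exocrine pancreas markers such as Cela2a (70 counts) and Pnlip (56 counts). The other 5 libraries held 0 to 2 and 1 to 3 counts of these lists. Results that rest on that library are given with and without it.

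The promoters of many liver genes are classical targets of the factors HNF1 and C/EBP, and those of acute phase genes also carry an element that answers to interleukin 6. RefSeq windows ran from 250 bases before to 50 bases after the start site. They came from GRCm38.p6, the C57BL/6J reference, not the BalB/c genome of these mice. Hp, Trf and Ttr were not part of the search, so the matches below say nothing of their promoters. The search of the 10 genes was thus limited to 7 of them, in 8 windows. The 4 printed below are those that hold the HNF1 core GTTAAT. Alb, Fga and Fgb among them had 0 or 1 wild-type count, and Gc had wild-type counts in library 1 only. They lie at chr5:90460620-90460919 (+ strand, Alb), chr3:83025903-83026202 (+ strand, Fga), chr3:83049814-83050113 (− strand, Fgb) and chr5:89457849-89458148 (− strand, Gc). Capitals mark matches, on either strand, to GTTAAT, to the C/EBP motif TTGCNNAA and to the interleukin 6 element CTGGGAA. No 2 matches overlapped.
Alb: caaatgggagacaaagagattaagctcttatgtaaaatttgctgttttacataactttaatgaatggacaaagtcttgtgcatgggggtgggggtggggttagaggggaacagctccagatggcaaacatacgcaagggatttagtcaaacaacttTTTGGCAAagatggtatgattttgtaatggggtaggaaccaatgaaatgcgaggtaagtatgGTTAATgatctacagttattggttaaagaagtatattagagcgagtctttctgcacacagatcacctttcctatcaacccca
Fga: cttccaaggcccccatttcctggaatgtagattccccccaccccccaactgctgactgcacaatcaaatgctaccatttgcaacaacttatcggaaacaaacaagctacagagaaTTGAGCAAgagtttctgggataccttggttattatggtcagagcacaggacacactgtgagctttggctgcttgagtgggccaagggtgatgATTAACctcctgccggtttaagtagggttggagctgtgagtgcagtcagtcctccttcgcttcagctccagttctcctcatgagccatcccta
Fgb: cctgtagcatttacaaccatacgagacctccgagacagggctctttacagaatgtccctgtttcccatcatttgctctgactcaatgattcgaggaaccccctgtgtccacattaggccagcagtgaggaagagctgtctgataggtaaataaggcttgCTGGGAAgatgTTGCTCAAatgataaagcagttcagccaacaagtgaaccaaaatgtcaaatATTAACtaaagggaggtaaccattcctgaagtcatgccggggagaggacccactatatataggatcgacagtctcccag
Gc: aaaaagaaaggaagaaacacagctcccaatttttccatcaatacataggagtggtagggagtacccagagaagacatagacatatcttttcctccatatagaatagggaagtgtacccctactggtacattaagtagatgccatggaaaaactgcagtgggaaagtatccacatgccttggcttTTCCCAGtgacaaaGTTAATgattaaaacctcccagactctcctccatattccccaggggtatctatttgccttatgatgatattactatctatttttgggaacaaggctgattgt

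The HNF1 core began 32 bases before the start site in Alb, 43 in Fga, 29 in Fgb and 52 in Gc. It was in 4 of the 7 genes, against 7.1% of 32817 promoter windows of the same length. Ahsg and Hpx, which also had 0 or 1 wild-type count, held no match to it, and neither did Rbp4. Here and below, a gene counts with a match in any of its windows, while the percentages are of single windows. TTGCNNAA was in 6 of the 7 genes (Alb, Hpx, Ahsg, Rbp4, Fga and Fgb), against 10.8% of all windows. CTGGGAA was in 2 (Gc and Fgb), against 11.1%, and the TATA box TATAAA in 1 (Rbp4), against 13.6%. These are matches of letters in a window, and no binding was measured.

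The 10 genes fell into 4 classes by where they were seen. Ahsg and Fga were seen in the mutants and had 0 counts in all 3 wild-type libraries. Of the 16396 genes with any count, 10.2% were in that class and 16.8% were seen in wild type only. Genes seen in all 3 mutants and not in wild type, as Ahsg and Fga were, numbered 273, against 166 the other way. Alb, Hpx and Fgb had 1 count in a single wild-type library. Ttr, Rbp4 and Gc had wild-type counts in library 1 only, the one with pancreas transcripts. Hp and Trf were seen in all 6 libraries, Hp at similar counts in both genotypes and Trf at far lower counts in wild type. All 10 were seen in all 3 mutants.

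**Figure D1:**
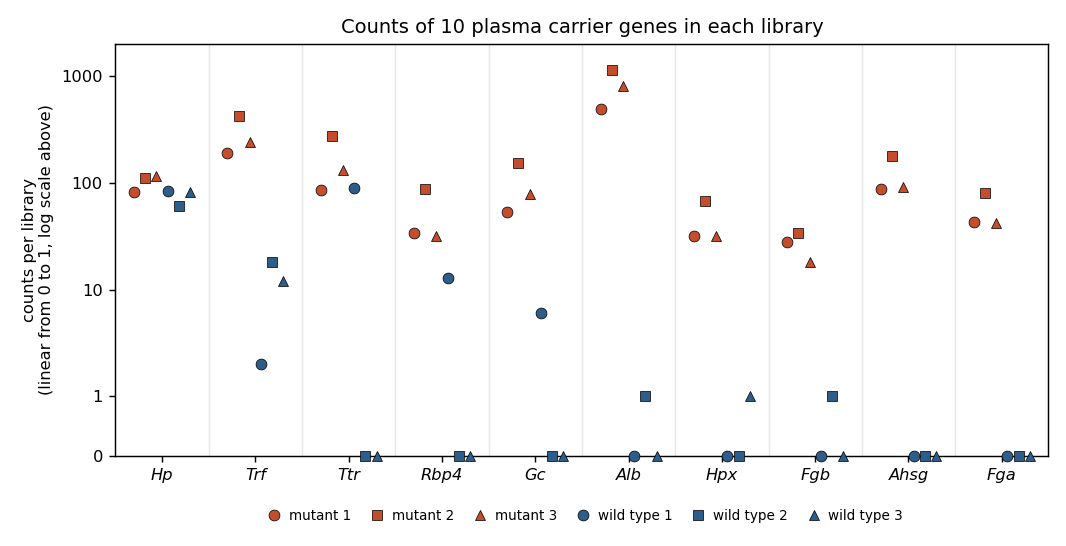
Counts per library of the 10 genes (vertical axis linear from 0 to 1 and on a log scale above), with the 3 mutant libraries left of the 3 wild-type libraries for each gene. Hp sits between 61 and 116 in every library, Ttr, Rbp4 and Gc have wild-type points above 0 for library 1 only, and the 5 genes on the right have 0 or 1 count in each wild-type library.

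Ahsg, whose product holds calcium phosphate in solution in blood, had 88, 179 and 91 counts in the mutants, against 0, 0 and 0 in wild type. Fga, the alpha chain of fibrinogen, had 43, 81 and 42 counts in the mutants, against 0, 0 and 0 in wild type. The genotypes did not overlap for either gene. A count of 0 was taken to allow up to 3 counts, a floor that was set and is no strict limit. Library totals were scaled by trimmed mean of M values (TMM) factors. With 3 counts over the wild-type group, Ahsg was at least 171-fold and Fga at least 79.2-fold higher in the mutants. Bounds of this kind, here and below, leave out the spread between animals. With total counts in place of the scaled totals these bounds were 122-fold and 56.5-fold.

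Alb, the main protein of plasma, had 490, 1136 and 800 counts in the mutants, against 0, 1 and 0 in wild type. Its TMM-scaled ratio, mutant over wild type, was 3473, with an exact 95% interval of 623 to 137233 that covers counting error only. Alb was the most abundant of the 10 genes in each mutant library and close to absent in each wild-type library. Hpx had 32, 68 and 32 counts in the mutants, against 0, 0 and 1 in wild type, a ratio of 189 (33.3 to 7520). Fgb, the beta chain of fibrinogen, had 28, 34 and 18 counts in the mutants, against 0, 1 and 0 in wild type, a ratio of 115 (20 to 4579). With total counts the ratios of these 3 genes were 2477, 135 and 81.7. Without wild-type library 1, and so with a smaller wild-type total to divide by, the values of Alb, Hpx, Fgb, Ahsg and Fga were 2267, 123, 74.8, at least 112 and at least 51.7.

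Ttr had 85, 273 and 133 counts in the mutants, against 90, 0 and 0 in wild type. The genotypes overlapped in counts, because wild-type library 1 exceeded mutant library 1. Its TMM-scaled ratio was 7.81 over all libraries and at least 153 without wild-type library 1. Within batch 1 the TMM-scaled ratio was 1.65, and that by total counts was 0.965. Rbp4 had 34, 88 and 32 counts in the mutants, against 13, 0 and 0 in wild type, with ratios of 17.0 and, without that library, at least 48.0. Gc had 53, 154 and 79 counts in the mutants, against 6, 0 and 0 in wild type, with ratios of 68.2 and at least 89.1. All 3 genes are known to be expressed in pancreatic islets as well as in liver. The endocrine pancreas list, with 17943 counts in that library and 0 to 2 in the others, moved with the wild-type counts of these 3 genes, and its part in them was not tested. Vdr (the vitamin D receptor), named after its values were seen, had 12 counts in wild-type library 1 and 0 in each of the other libraries.

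Trf had 189, 427 and 242 counts in the mutants, against 2, 18 and 12 in wild type, without overlap. Transferrin delivers iron to maturing red cells through the transferrin receptor. Its level in CPM (counts scaled to a common, TMM-adjusted library total) was 22.9 ± 11.3 over the mutants, against 0.607 ± 0.497 over wild type (SD, n = 3 each), with a fitted log2 fold change of 5.26 (SE 0.68). Within the batches the ratio was 165, 32.7 and 25.3, and the value of batch 1 rests on 2 wild-type counts. Unlike Ttr, Rbp4 and Gc, Trf was lowest in wild-type library 1. Its TMM-scaled ratio of pooled counts was 38.4 over all libraries and 26.7 without that library.

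Hp had 83, 112 and 116 counts in the mutants, against 84, 61 and 82 in wild type, and the genotypes overlapped in counts. In CPM they did not overlap, with 7.6, 9.42 and 7.49 in the mutants, against 4.41, 3.72 and 4.22 in wild type. The fitted log2 fold change was 0.98 (SE 0.21) with TMM scaling and 0.49 with total counts, where the median over all genes tested was −0.53 in place of −0.06. TMM factors were 0.72, 0.78 and 1.06 in the mutants, against 1.23, 1.11 and 1.23 in wild type. Within batches 1, 2 and 3 the ratio was 1.72, 2.53 and 1.77 with TMM scaling and 1.01, 1.77 and 1.53 with total counts.

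Neutrophils and their precursors are also known to express Hp. The 16 neutrophil markers summed to 1121, 1194 and 2220 counts in the mutants, against 2430, 1927 and 1877 in wild type, or 100 to 143 CPM against 96.7 to 128. S100a9 (359, 415 and 694 counts against 925, 714 and 724) and Csf3r (395, 380 and 771 against 821, 613 and 582) were the most abundant. Other genes of the list ranged widely. Elane was at 0 in all libraries and Mpo and Camp were at 1 count in 1 library each. Lcn2 had 12, 15 and 23 counts in the mutants, against 10, 22 and 17 in wild type, and Mmp8 had 29, 15 and 45 against 34, 40 and 25. Hp counts per neutrophil count were 0.0740, 0.0938 and 0.0523 in the mutants, against 0.0346, 0.0317 and 0.0437 in wild type. In wild type Hp was present where Alb, Ahsg and Fga were at 0 or 1, and the part of neutrophil RNA in it was not tested.

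**Figure D2:**
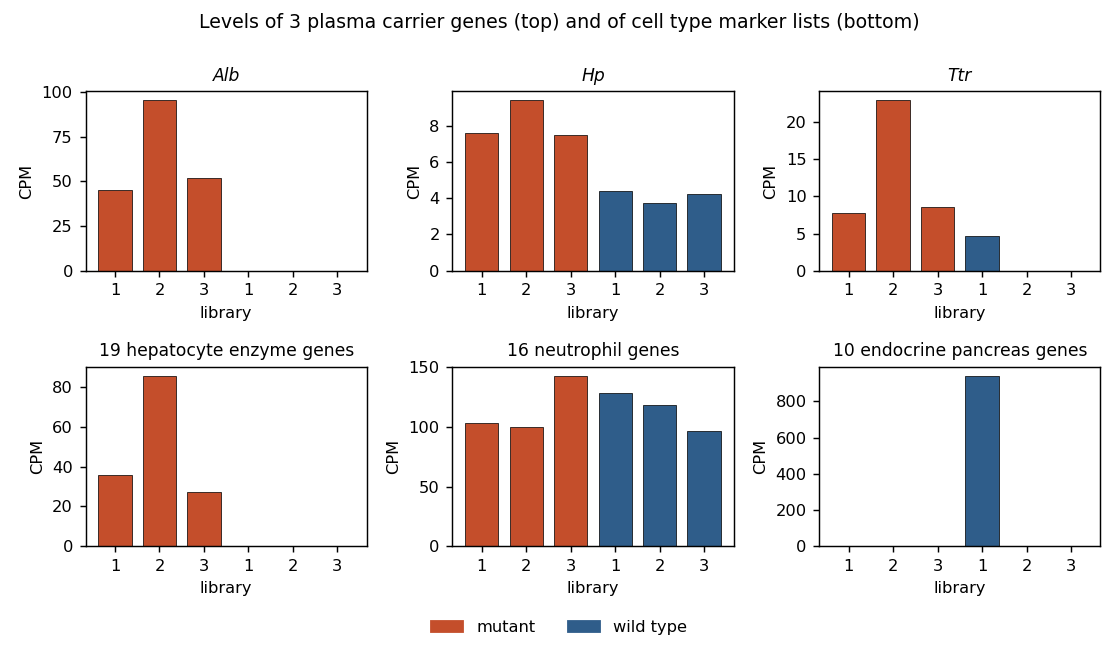
CPM of Alb, Hp and Ttr (top) and summed CPM of 19 hepatocyte enzyme genes, 16 neutrophil genes and 10 endocrine pancreas genes (bottom), 1 bar per library, each panel with its own axis from 0. Alb and the hepatocyte genes are highest in mutant library 2, Hp and the neutrophil genes are present in every library, and the endocrine pancreas genes reach 942 CPM in wild-type library 1.

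Within the mutants the counts of most of these genes differed between libraries in step. Library 2 had more counts than library 1 for all 10 genes, by 1.21 times (Fgb) to 3.21 times (Ttr), with 2.32 for Alb and 1.35 for Hp. It had more than library 3 for 9 of them, by 1.42 times (Alb) to 2.75 times (Rbp4), while Hp was at 0.966. Summed over the 10 genes the level was 103, 215 and 102 CPM in the mutants, against 10.2, 4.94 and 4.89 in wild type. Without Hp it was 95.4, 205 and 94.8 CPM in the mutants, against 5.83, 1.22 and 0.670. In bulk RNA, fewer cells of a type and less RNA per cell cannot be told apart.

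Each gene as a share of the counts of a library does not depend on the scaling. With Hp left out, Alb took 47.0% (95% Wilson interval 44.0 to 50.1), 46.6% (44.6 to 48.5) and 54.5% (51.9 to 57.0) of the summed counts in mutants 1, 2 and 3, so that the interval of mutant 3 lay above that of the other mutants. Trf took 18.1% (15.9 to 20.6), 17.5% (16 to 19.1) and 16.5% (14.7 to 18.5), with intervals that overlapped. Ttr took 8.16% (6.65 to 9.98), 11.2% (10 to 12.5) and 9.05% (7.69 to 10.6). Wild-type library 1 had another makeup, with 81.1% Ttr (72.8 to 87.3), 11.7% Rbp4 (6.97 to 19) and 0 of 111 counts for Alb (Wilson interval 0 to 3.35, with a limit of 2.70% where a count of 0 is taken to allow 3 counts). In wild-type libraries 2 and 3 Trf took 18 of 20 and 12 of 13 counts, or 90.0% (69.9 to 97.2) and 92.3% (66.7 to 98.6).

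**Figure D3:**
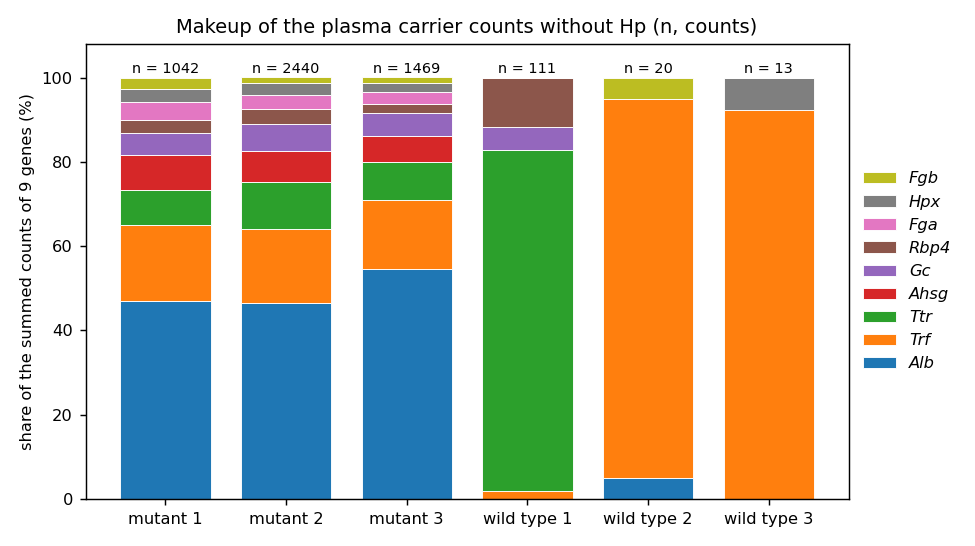
Share of the summed counts of 9 genes (all but Hp) that each gene took, stacked to 100% for each library, with the summed count above each bar. Alb takes 46.6% to 54.5% of the mutant bars, while Ttr fills most of the bar of wild-type library 1 (81.1%) and Trf most of those of libraries 2 and 3 (90.0% and 92.3%).

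Levels of different genes were compared per kilobase of gene length as given in the deposited files. Alb was highest in all 3 mutants, at 22.0, 46.8 and 25.3 CPM per kb. Ttr (6.38, 18.8 and 7.03) and Trf (7.42, 15.4 and 6.70) held the next 2 places and changed order between libraries. Ahsg (5.47, 10.2 and 3.98), Hp (5.65, 7.0 and 5.57) and Gc (2.68, 7.15 and 2.81) followed, and their order also changed. Rbp4 was in place 7 and Hpx in place 8 in all 3 mutants. Fga and Fgb held the last 2 places, with means of 1.33 ± 0.624 and 1.39 ± 0.576 CPM per kb (SD, n = 3 each) that differed by less than their spread. In wild type the order was another one, with Hp at 3.28, 2.77 and 3.14 CPM per kb and the other genes below it except Ttr in library 1 (3.87).

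Hepatocyte genes that are not secreted were seen in the same libraries. Of the 20 on that list, Aldh1a1 had 2484, 2749 and 3014 counts in the mutants, against 3570, 3226 and 3921 in wild type, and so is no liver marker here. The other 19 summed to 388, 1018 and 423 counts in the mutants, against 7, 1 and 3 in wild type, with 18 or 19 of them seen per mutant library and 1 to 4 per wild-type library. Aldehyde dehydrogenase aside, the most abundant was Cyp2e1, a cytochrome P450, at 74, 289 and 95 counts in the mutants, against 0, 0 and 1 in wild type. Mutant library 2 was the highest of the mutants for this list, as for 9 of the 10 plasma carriers. The part of hepatocyte RNA in the levels of the plasma carriers was not tested.

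Lists around the 10 genes were compared by edgeR's quasi-likelihood test with adjustment over all 2823 genes tested, of which 5.99% were higher and 1.06% lower in the mutants at an adjusted p under 0.05. These lists hold liver genes too and were written with earlier results known. Of 30 other plasma carriers and inhibitors, 22 were seen in the mutants and had 0 wild-type counts, a class that held 10.2% of all genes with any count. Of these 30, 12 were tested, and 11 of the 12, all but Selenop, passed the filter on low counts through the mutant libraries only. The filter thus favored higher values in the mutants, and the count and p-values of these 11 are a description. Of the 12 tested, 12 were higher and 0 lower, with a median log2 fold change of 7.88 (5.32 with genes at 0 in wild type set to their bound), against −0.06 over all genes. Apoh, which binds phospholipid surfaces, had 31, 51 and 31 counts in the mutants, against 0, 0 and 0 in wild type, at least 53.9-fold higher (edgeR adjusted p = 6.14e-07). Ambp, the precursor of the heme-binding protein alpha-1-microglobulin, had 27, 44 and 36 counts in the mutants, against 2, 0 and 0 in wild type (ratio 76.6, interval 20.7 to 641, edgeR adjusted p = 6.55e-07). Both wild-type counts of Ambp were in library 1, and without that library it was at least 33.3-fold higher. Vtn (vitronectin) and Kng1 (kininogen) were at least 49.6-fold and 40.6-fold higher (edgeR adjusted p = 7.21e-07 and 1.23e-06), and the protease inhibitors Pzp and Mug1 at least 106-fold and 79.2-fold.

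Selenop, a selenium carrier that the liver secretes, was seen in all libraries like Hp. It had 295, 460 and 406 counts in the mutants, against 288, 252 and 335 in wild type, and was the only gene tested on that list with more than 2 wild-type counts. Its level was 30.6 ± 6.98 CPM over the mutants, against 15.9 ± 1.17 CPM over wild type (SD, n = 3 each), with a log2 fold change of 0.94 (SE 0.19, edgeR adjusted p = 0.00231). With total counts this call was lost (log2 0.44, edgeR adjusted p = 0.137). Without Selenop the other 29 genes summed to 318, 634 and 356 counts in the mutants, against 2, 0 and 2 in wild type.

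Of 18 coagulation genes 6 were tested. The 5 that were higher (0 were lower) passed the filter through the mutant libraries only. The filter thus favored higher values in the mutants, and the count and p-values of these 5 are a description. The 6 had a median log2 fold change of 7.27 (5.80 with genes at 0 in wild type set to their bound). Fgg, the gamma chain that completes fibrinogen, had 25, 65 and 35 counts in the mutants, against 0, 0 and 0 in wild type, at least 59.6-fold higher (edgeR adjusted p = 4.23e-05). All 3 fibrinogen chains were thus seen in each mutant library. F2 (prothrombin) and Plg (plasminogen) were at least 38.7-fold and 64.9-fold higher (edgeR adjusted p = 2.95e-06 and 7.04e-05). The inhibitors Serpinc1 (antithrombin) and Serpinf2 (antiplasmin) had 87 and 52 counts over the mutants, against 1 and 1 over wild type, with ratios of 125 and 74.4 (edgeR adjusted p = 1.25e-06 and 1.90e-05). Each of these wild-type counts was in library 1, and without it the inhibitors were at least 27.1-fold and 16.2-fold higher. F5, coagulation factor V, which platelets also hold, was not called. It had 22, 25 and 22 counts in the mutants, against 17, 15 and 26 in wild type (log2 0.79, edgeR adjusted p = 0.166), and was seen in all libraries.

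Receptors of the carriers and the proteins that handle their iron, heme and retinol showed no called gene among 6 tested of 22. Over all genes tested 7.05% were called in either direction, so 0 of 6 is near that share. At an unadjusted p under 0.05 there were 2, and DESeq2 over 22 genes called 1, Asgr1. The 6 had a median log2 fold change of 0.20. On the wild-type libraries alone 5 of the 6 would pass the filter, and Asgr1 was not tested in the main fit. The most abundant were the ferritin chains. Ftl1 had 28594, 27193 and 27580 counts in the mutants, against 28887, 28937 and 30392 in wild type (log2 0.46, edgeR adjusted p = 0.129), and −0.05 with total counts. Fth1 had 2209, 2341 and 3493 counts in the mutants, against 3382, 4183 and 4300 (log2 −0.07, adjusted p = 0.888). Tfrc, the transferrin receptor of maturing red cells, had 100, 60 and 246 counts in the mutants, against 145, 577 and 706 in wild type (log2 −1.38, SE 0.79, edgeR adjusted p = 0.481). Without wild-type library 1 its log2 fold change was −1.82 (edgeR adjusted p = 0.0515). Cd163, the macrophage receptor for haptoglobin with hemoglobin, had 3, 1 and 0 counts in the mutants, against 0, 0 and 0 in wild type. Asgr1, a hepatocyte receptor for plasma glycoproteins named after its values were seen, had 9, 18 and 7 counts in the mutants, against 0, 0 and 0 in wild type.

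Regulators of liver and acute phase genes showed no called gene among 6 tested of 17, again near the 7.05% called over all genes tested. At an unadjusted p under 0.05 there were 0, and DESeq2 over 16 genes called 1, Cebpa. The 6 had a median log2 fold change of 0.25. All 6 would pass the filter on the wild-type libraries alone, and Cebpa and Hnf4a were not tested in the main fit. Jak1, Cebpb and Stat3, which carry the interleukin 6 signal, did not pass (log2 −0.31, 0.33 and 0.19, with edgeR adjusted p of 0.561, 0.601 and 0.825), and with total counts Cebpb and Stat3 were at −0.15 and −0.29. Il6 had 0 counts in all libraries. Cebpa, the C/EBP factor of hepatocytes, which myeloid cells also express, was named after its values were seen and had 12, 17 and 9 counts in the mutants, against 4, 1 and 5 in wild type. Hnf4a had 7, 8 and 4 counts in the mutants, against 8, 0 and 0 in wild type, so that its wild-type counts were all in the library with pancreas transcripts.

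**Figure D4:**
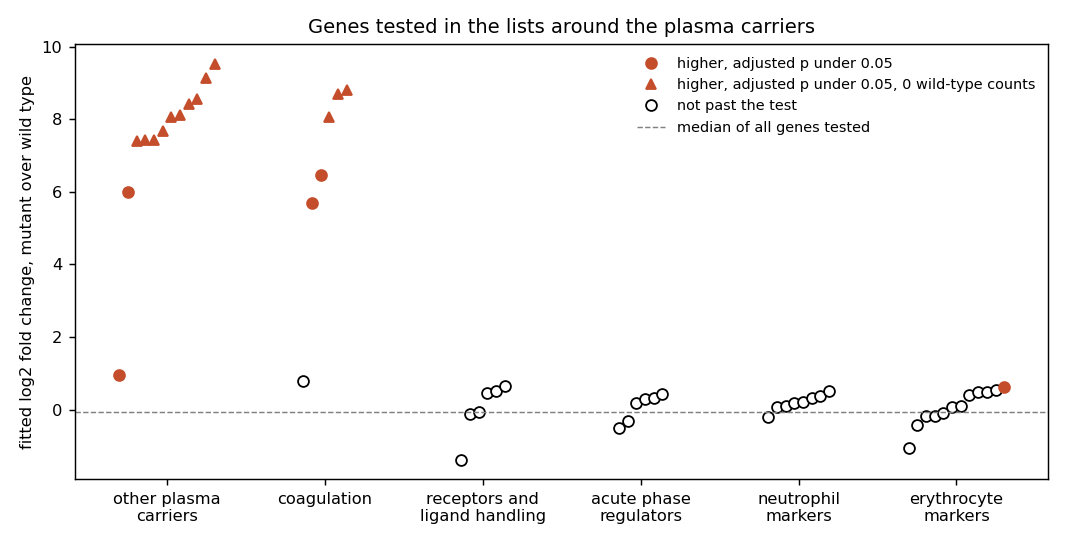
Fitted log2 fold change, mutant over wild type, of each gene tested in 6 lists (points), filled where the gene was higher at an adjusted p under 0.05 and triangular where wild type had 0 counts, whose fitted values are no bounds. For genes that passed the filter through the mutants only, the filter favored higher values in the mutants. The other plasma carriers and the coagulation genes reach values up to 9.53, while the receptors, regulators and neutrophil markers lie between −1.38 and 0.65. Asgr1, Cebpa and Hnf4a did not pass the filter and are not shown.

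Markers of other cells that blood could hold were seen in both genotypes. The 11 platelet markers had 215, 81 and 171 counts in the mutants, against 177, 188 and 338 in wild type, the 13 monocyte and macrophage markers 309, 149 and 310 against 223, 154 and 251, and the 12 T and B cell markers 152, 179 and 96 against 198, 184 and 490. The 8 heart muscle markers, from the organ that was punctured for blood, had 1, 0 and 3 counts in the mutants, against 2, 1 and 0. The 8 adipose markers had 21, 68 and 42 counts in the mutants, against 1, 0 and 1, of which Car3, also expressed in liver, had 21, 66 and 39 against 0, 0 and 1, while Adipoq and Plin1 were at 0 in every library. The 8 endothelial markers had 21, 58 and 47 counts in the mutants, against 21, 12 and 26.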

How the data were processed

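Per the labels' protocols, red cells from cardiac blood were pelleted through Ficoll, washed and checked by flow cytometry, and polyadenylated RNA was made into Illumina TruSeq v2 libraries. The deposited files hold raw counts per Entrez gene with no normalization, 1 file per library, per the file headers. CASAVA 1.8.2, Subread and featureCounts were used with the mm10 build, per the submitters' processing notes. Their other versions, the annotation and the strand setting are not given in the sources used here, so reads of overlapping genes cannot be told apart. Symbols for 25275 of 27179 genes came from RefSeq (GRCm38.p6), matched by Entrez number. Genes without one took 1.39% of counts and stayed in the tests. Of 234 list entries 232 matched.

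The comparison was edgeR 4.0.16 (R 4.3.3): TMM scaling, filterByExpr, a model with genotype alone, the robust quasi-likelihood F test, and p-values adjusted by Benjamini-Hochberg over the 2823 genes tested. A standard error is the log2 fold change over the root of F. CPM used TMM-scaled totals. Folds against 0 wild-type counts used 3 counts over the group, and 1 to 3 wild-type counts an exact binomial interval. Shares carry Wilson intervals. All intervals cover counting error only, and 3 counts were 0.155 to 0.275 CPM per library. The edgeR and DESeq2 fits were tested on counts simulated for genes that passed the filter. The simulated folds were far smaller than those of genes near 0 in wild type, so this says nothing of such genes. Alternatives were batch as a term, RLE scaling, total counts, no filter, DESeq2 1.42.0 and leaving out each library. The batch label pairs the libraries, but deviations from the group means did not correlate positively within batches 1, 2 and 3 (−0.121, −0.0795 and −0.0204).

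The 10 genes and all lists were chosen with earlier results of these data known. Genes named were the 10, up to 4 called genes with the smallest p and the 3 most abundant of each list, and the 2 most abundant of each marker list, and others are said to be named after their values were seen or are given to describe a list.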

Additional observations from a re-analysis of the deposited data

How the results depend on the processing

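The summed level of the 10 genes had a log2 ratio, mutant over wild type, of 4.39. It was 5.68 without Hp and 3.51 without Alb, and 3.86 to 4.63 under the other scalings and without Ttr, with 4.0 to 4.83 when each library was left out in turn. Over all genes, 169 were higher and 30 lower. With no filter on low counts 382 were higher and 82 lower, with DESeq2 270 and 6, and with total counts 115 and 245. With RLE scaling 19 were lower, and with batch as a term (the replicate block) 60 were lower and 194 higher, while the counts of called plasma carriers (12), coagulation genes (5), receptors (0) and regulators (0) were those given above. Leaving out each library gave 137 to 244 higher and 8 to 77 lower genes. The other plasma carriers called higher numbered 20 with no filter and 19 with DESeq2, and 12 to 13 when a library was left out. For coagulation genes these numbers were 11 and 8, and 5 to 7. Receptors and ligand handling had 2 called genes with no filter (Asgr1 and Tfr2), 1 with DESeq2 (Asgr1), 2 without mutant library 3 (Tfr2 and Ftl1), 1 without wild-type library 3 (Tfr2) and 0 without any other library. Among regulators Cebpa was called with no filter, with DESeq2 and without mutant library 3 or any 1 wild-type library, that is 0 to 1 gene when a library was left out. More genes were tested with no filter and with DESeq2 (16396 each) and without any 1 library (3025 to 3369) than in the main fit (2823). The cause of the changes was not tested.

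The fitted log2 fold change of Ftl1 was −0.05 with total counts. That of Fth1 was 0.00 with DESeq2 and 0.01, 0.02 and 0.08 without mutant library 1, mutant library 2 and wild-type library 2, the range over libraries left out being −0.19 to 0.08. Stat3 and Cebpb were at −0.29 and −0.15 with total counts. Without wild-type library 1, Ttr, Rbp4 and Gc had 0 wild-type counts, as given above. Hp kept its direction under all alternatives, from 0.49 to 1.13. With 3 libraries a group and wild-type counts of 0 or 1, the size of most ratios is limited by depth.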

Other observations

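Some transcripts known from liver cells other than hepatocytes were also seen, on few counts, and are named after their values were seen. Their source was not tested. Clec4g and Stab2, which are known from the endothelium of liver sinusoids, had 6, 8 and 6 and 1, 10 and 4 counts in the mutants, against 0, 0 and 0 for both in wild type. Clec4f and Vsig4, known from Kupffer cells, had 0, 3 and 4 and 1, 2 and 4 counts in the mutants, against 0, 0 and 0 for both in wild type. Cd5l had 4, 2 and 5 counts in the mutants, against 0, 0 and 1 in wild type, Timd4 had 3, 1 and 1 against 1, 0 and 1, Lyve1 had 0, 2 and 0 against 0, 0 and 1, and Marco was at 0 in all libraries. Seen in the mutants only were 1674 genes, 273 of them in all 3 mutants, and seen in wild type only were 2751, 166 of them in all 3 wild-type libraries, of 16396 genes with any count.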
